A study of Mus musculus with 12 samples.

Results

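Histone gene transcripts were followed in poly(A)-selected RNA of mouse glomeruli, the filtration units of the kidney. The genes were chosen by their symbols, namely those of the linker histone H1 genes, the replication-dependent H2A, H2B, H3 and H4 genes and the H3.3 genes, with 10 or more counts summed over the 12 libraries. Symbols starting with H2af were also taken, which brought in the pseudogene H2af-ps2. Of 26264 gene symbols, 71 carried such a name and 58 reached the minimum. Of the 58 genes, 36 were expressed highly enough to be tested, among 17002 tested genes in all, and 22 were not. The 22 had between 10 and 69 counts in the 12 libraries together (median 29). Closest to the minimum, H1f5 had 10 counts and H2bc22 had 12, whereas H2bc14, H3c10 and H2ac11 had 6 each and were left out.

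Male mice, 8 weeks old, came from 2 BALB/c substrains, BALB/cAjcl, called Ajcl here, and BALB/cByJcl, called ByJcl. Glomeruli were isolated with magnetic beads from untreated mice (baseline) and from mice killed on Day 5 after 1 injection of adriamycin (ADR, doxorubicin) at 10 mg/kg, with 3 libraries in each of the 4 groups. Doxorubicin traps topoisomerase II on DNA and injures podocytes, the cells that cover the glomerular capillaries. The study set aside replicate 1 of Ajcl at Day 5 for low glomerular purity, so that group has 2 libraries in the comparisons below, and the third is described separately.

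Most histone proteins are needed while DNA is being copied, and their genes lie in clusters and are read mainly in S phase. The mRNAs of these cluster genes usually end in a short stem-loop, bound by the protein Slbp, instead of a poly(A) tail, so selection for poly(A) takes up few of them. Variant histones such as H3.3 and H1.0 come from genes outside the clusters, are made throughout the cell cycle and carry ordinary poly(A) tails.

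Cluster genes made up 51 of the 58 genes, 44 on chromosome 13 and 7 on chromosome 3, and 45 of them have a single exon in every annotated transcript. The histone stem-loop pattern, 16 bases with GG, CTT, AG and CC at a fixed spacing, was found on the gene's strand within 150 bases after a stop codon in 50 of the 51, against 83 of 21645 protein-coding genes (0.383%) in the GENCODE annotation of GRCm39. The stem-loops of the cluster genes that the results turn on are shown with 5 bases on each side and the matched letters in capitals. They come from chr13:23923490-23923515 on the plus strand (H1f2), chr13:23868625-23868650 on the plus strand (H2bc4), chr13:23769509-23769534 on the minus strand (H2bc6), chr13:23805760-23805785 on the minus strand (H1f4), chr3:96170250-96170275 on the minus strand (H4c14) and chr13:23715623-23715648 on the plus strand (H4c8), all in GRCm39.
H1f2: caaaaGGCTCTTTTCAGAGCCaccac
H2bc4: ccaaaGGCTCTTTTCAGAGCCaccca
H2bc6: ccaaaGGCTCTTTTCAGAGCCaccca
H1f4: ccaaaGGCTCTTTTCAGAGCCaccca
H4c14: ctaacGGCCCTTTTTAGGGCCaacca
H4c8: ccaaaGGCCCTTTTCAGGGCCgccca

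The H1 and H2B genes shown have the same 16 matched letters. H2bc21, which encodes an H2B protein, was the 1 cluster gene without a match in this window.

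A poly(A) signal, AATAAA or ATTAAA, lay in the last 45 bases of an annotated transcript in 14 of the 51 cluster genes (27.5%), against 84.5% of protein-coding genes. The signals of 6 genes are shown because they mark where a transcript with a poly(A) tail could end, with the signal in capitals. Their GRCm39 positions are chr13:23924315-23924340 on the plus strand (H1f2), chr13:23876435-23876460 on the plus strand (H2bc4), chr3:96131023-96131048 on the plus strand (H2bc21), chr13:23766595-23766619 on the minus strand (H2bc6), chr3:96169015-96169040 on the minus strand (H4c14) and chr11:115912815-115912840 on the minus strand (H3f3b).
H1f2: gtatgcttctAATAAAaagcgtttag
H2bc4: atgtatatatAATAAAtgtcatgtaa
H2bc21: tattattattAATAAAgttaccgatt
H2bc6: tataaacacaAATAAAaaaaatttt
H4c14: gtatacataaAATAAAatcttaaaaa
H3f3b: aggccttacaAATAAActagtaagtt

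H1f4 had no such signal in its annotated transcript. In H1f2 the annotated transcript runs 840 bases past the stem-loop, in H4c14 it runs 1257 bases past it, and in H4c8 only 46 bases past it. H2bc4 transcripts have 2 exons.

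The 14 cluster genes with a poly(A) signal took 92.1% of all counts of cluster genes. Their median was 920 counts over the 12 libraries, against 69 for the 37 genes without one. Some of the genes without a signal have annotated transcripts that end before the stem-loop is complete. Sequence past the stem-loop was not searched in these, so the absence of a signal there rests on the annotation. Of the 10 cluster genes with the most counts, 8 had the signal, and these 10 took 94.9% of the counts of all 51. Those among the 10 without it were H1f4 and H2bc18. The annotated transcript of H2bc18 has 381 bases, with a coding sequence of 378, so nothing past its stop codon was searched. The 2 sets overlap widely, since genes with a signal ranged from 12 to 37159 counts and genes without one from 10 to 2007.

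**Figure D1:**
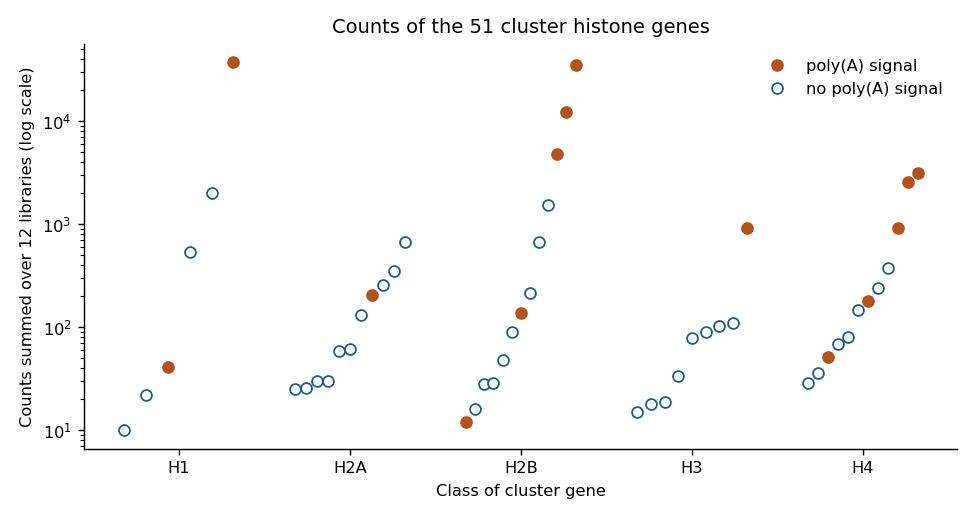
Counts of each of the 51 cluster histone genes summed over the 12 libraries (vertical axis, log scale) by class, with filled points for the 14 genes that have a poly(A) signal at an annotated transcript end and open points for the 37 that do not. In H1, H2B, H3 and H4 the gene with the most counts has a signal, and the highest is H1f2 with 37159 counts.

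Of the counts of these 58 genes, the 3 genes named for H3.3 took 69.0%, the 3 H1 genes outside the clusters took 15.3% and the 51 cluster genes took 15.1%. Within the clusters H2B genes held 7.83% of the same total and H1 genes 5.69%, against 1.12% for H4, 0.264% for H2A and 0.197% for H3. The remaining 0.54% fell on H2af-ps2, an H2A pseudogene. H3f3c, counted with the H3.3 genes, is also annotated as a processed pseudogene and had 955 counts, against 260630 for H3f3b and 221214 for H3f3a. These shares leave out histone genes with other names, 11 of which summed to between 314 and 482 CPM in a library. Most of that level came from H2A variant genes such as H2az1, at 69.7 to 115 CPM, and Macroh2a1, at 67.5 to 96.6 CPM, whereas the cluster H2A genes summed to between 2.02 and 4.94 CPM.

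Many cluster genes are near copies of one another, and reads from them may be shared or lost in counting. Of the stretches of 100 bases inside single coding exons, the median share also found elsewhere in GRCm39 was 66.0% for H2A, 61.7% for H4, 56.0% for H3, 51.6% for H2B and 4.93% for H1. The share was 94.6% for H2bc4 and 85.6% for H3f3a, and values of these genes are uncertain on that account, to a degree not measured. The coding sequence is 378 of 1707 bases in the main annotated transcript of H2bc4 and 408 of 4674 in that of H3f3a. Bases outside the coding sequence, which counts can include, were not searched in any gene. Among the genes called below the share was 47.3% for H2bc6, 9.86% for H1f4 and 0% for H3f3b, H2bc21 and H4c14, and it was 65.7% for H4c8. H2bc6 shares annotated exon sequence with H1f4 on the same strand, so their counts are not fully separate.

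On a scale per kb of transcript, H3f3b stood highest with a mean of 229 CPM per kb (CPM on library sizes scaled by TMM) over the 11 libraries, followed by H1f0 with 88.6 and H3f3a with 81.9. Among cluster genes H1f2 had 41.0 CPM per kb, H2bc4 had 32.8, H4c8 had 8.62 and H2bc21 had 8.28. The highest cluster genes of the other classes had 2.15 CPM per kb for H2A (H2ac7) and 1.24 for H3 (H3c4).

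Summed over the 51 cluster genes, the level was 161, 171 and 190 CPM in Ajcl at baseline and 188, 196 and 187 CPM in ByJcl at baseline. At Day 5 it was 220 and 156 CPM in Ajcl and 146, 148 and 198 CPM in ByJcl. The groups overlapped between substrains at both times and between baseline and Day 5 in both substrains. The H2B and H1 classes within this sum are described apart, without a test. A few genes hold most of each. In ByJcl at baseline H2bc4, H2bc21 and H2bc6 had means of 58.9, 25.9 and 10.4 CPM of an H2B mean of 101 CPM. H1f2 had 62.2 CPM of an H1 mean of 68.6 CPM. H2bc21 and H2bc6 are among the genes called below, so the H2B sum is not separate from those calls. Cluster H2B genes summed to 102, 96.1 and 105 CPM in ByJcl at baseline and to 63.2, 57.6 and 82.4 CPM at Day 5, without overlap, and to 101, 97.5 and 105 CPM in Ajcl at baseline and 120 and 72.3 CPM at Day 5. Cluster H1 genes summed to 64.2, 76.7 and 65.0 CPM in ByJcl at baseline and to 67.2, 75.8 and 96.4 CPM at Day 5, and these overlapped. In Ajcl they summed to 45.4, 55.7 and 62.9 CPM at baseline, below all ByJcl baseline libraries, and to 75.9 and 67.8 CPM at Day 5, above the Ajcl baseline.

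For the H3.3 genes the sum was 804 ± 131 CPM in Ajcl at baseline (SD, n = 3), 781 ± 2.37 in Ajcl at Day 5 (n = 2), 807 ± 55.5 in ByJcl at baseline (n = 3) and 958 ± 69.4 in ByJcl at Day 5 (n = 3). The H1 genes outside the clusters summed to 165 ± 4.60, 197 ± 0.114, 181 ± 11.7 and 206 ± 9.03 CPM in the same order. In both substrains all Day 5 libraries lay above all baseline libraries for these H1 genes. The sums are described without a test.

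**Figure D2:**
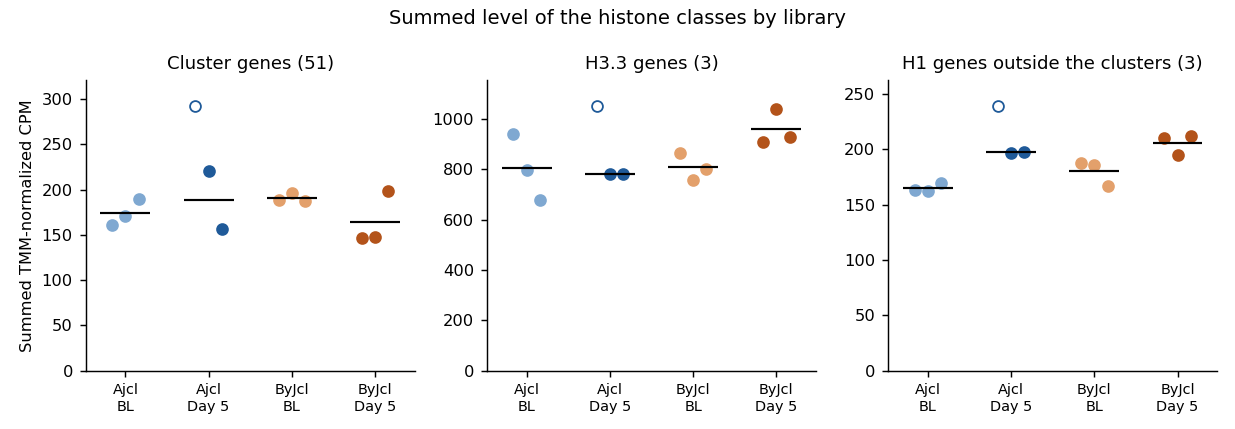
Summed TMM-normalized CPM of the cluster genes, the H3.3 genes and the H1 genes outside the clusters (vertical axes, from 0) in each library of the 4 groups, with lines at the mean of the filled points and an open point for the set-aside Ajcl library. The open point is the highest in each panel, at 292 CPM for the cluster genes.

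Histone genes were called by edgeR in 1 of the comparisons, the response to ADR in ByJcl. Tested by quasi-likelihood in edgeR, with p-values adjusted by Benjamini-Hochberg over all tested genes, 5 of the 36 tested histone genes passed an adjusted p of 0.05, with H3f3b higher and H2bc21, H2bc6, H1f4 and H4c14 lower at Day 5. That is 13.9% of the histone genes, near the 10.6% of all 17002 genes called in this comparison (5.75% higher and 4.83% lower). DESeq2 called 5 histone genes as well, and 15.8% of all genes. At an unadjusted p of 0.05 there were 9 histone genes (25.0%), against 26.8% of all genes. The libraries of the 2 groups did not overlap for 9 of the 36 genes (25.0%), against 33.6% of all tested genes.

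H3f3b, 1 of the genes that encode the replacement histone H3.3, lies at chr11:115912738-115918788 on the minus strand of GRCm39. It was at 412, 393 and 407 CPM in ByJcl at baseline and at 547, 668 and 581 CPM at Day 5. All Day 5 libraries lay above all baseline libraries, and the log2 fold change was 0.59 (SE 0.11, adjusted p = 0.0098, edgeR). In Ajcl it was at 406, 385 and 349 CPM at baseline and at 419 and 473 CPM at Day 5. These groups did not overlap either, but the log2 fold change of 0.25 (SE 0.13) did not pass the test (adjusted p = 0.57, edgeR).

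H3f3a encodes the same H3.3 protein and did not follow. It was at 452, 361 and 391 CPM in ByJcl at baseline and at 360, 368 and 346 CPM at Day 5, and the groups overlapped.

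H2bc21, the cluster gene without a stem-loop match, lies at chr3:96128435-96131054 on the plus strand. Its level in ByJcl was 26.3, 22.3 and 29.2 CPM at baseline and 12.3, 11.7 and 13.4 CPM at Day 5. The groups did not overlap, and the log2 fold change was -1.03 (SE 0.19, adjusted p = 0.00886, edgeR). In Ajcl it was at 27.3, 26.7 and 25.3 CPM at baseline, and 1 Day 5 library was above this range at 29.1 CPM and the other below it at 15.4 CPM. The log2 fold change there was -0.24 (SE 0.22, adjusted p = 0.793, edgeR).

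H2bc6, another H2B gene, lies at chr13:23766595-23805139 on the minus strand and was at 11.2, 11.2 and 8.81 CPM in ByJcl at baseline and at 4.42, 3.60 and 6.08 CPM at Day 5. The groups did not overlap, and the log2 fold change was -1.12 (SE 0.25, adjusted p = 0.0182, edgeR). In Ajcl the Day 5 libraries again parted, at 10.7 and 5.77 CPM, around a baseline of 8.54, 10.7 and 9.93 CPM. The same 2 libraries, in the same order, had podocyte marker sums of 15000 and 10100 CPM, against 14600 to 19900 CPM at baseline, and p53 target sums of 1240 and 1770 CPM, against 409 to 456 CPM. The part of this in the histone values was not tested.

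H1f4, a linker histone gene at chr13:23804612-23806541 on the minus strand, was at 3.81, 6.75 and 5.43 CPM in ByJcl at baseline and at 1.84, 0.544 and 2.07 CPM at Day 5. H4c14, an H4 gene at chr3:96168998-96170627 on the minus strand, was at 2.68, 3.43 and 2.27 CPM at baseline and at 0.662, 0.385 and 0.883 CPM at Day 5. All Day 5 libraries lay below all baseline libraries for both genes. The log2 fold change was -1.81 for H1f4 (SE 0.50, adjusted p = 0.0439, edgeR) and -2.08 for H4c14 (SE 0.50, adjusted p = 0.0248, edgeR). Both calls rest on few libraries, since that of H1f4 was lost on leaving out any 1 ByJcl library or baseline replicate 2 of Ajcl, and that of H4c14 on leaving out baseline replicate 1 or 2 or Day 5 replicate 1 or 2 of ByJcl. With all 12 libraries the adjusted p was 0.0511 for H1f4 and 0.0626 for H4c14 (edgeR). The H2bc6 call was lost without ByJcl baseline replicate 1 (adjusted p = 0.0595, edgeR), baseline replicate 2 (0.0647) or Day 5 replicate 2 (0.0801).

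**Figure D3:**
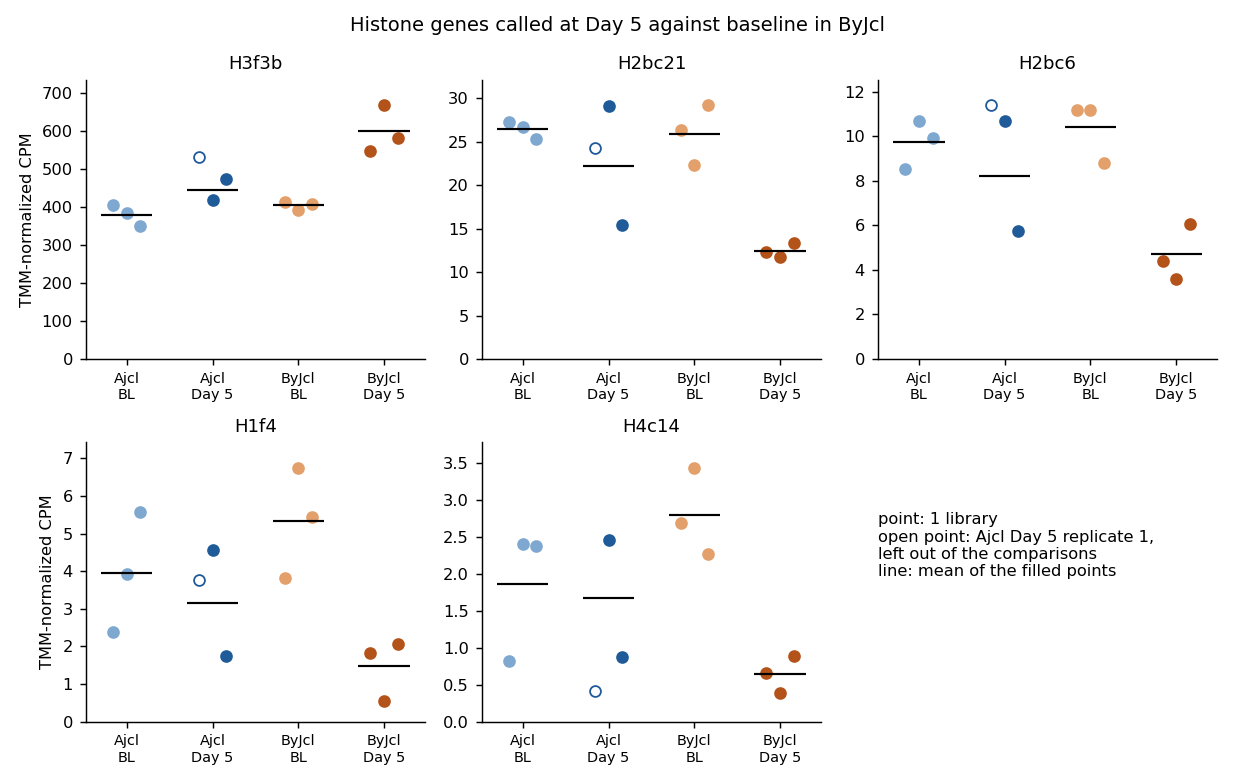
TMM-normalized CPM (vertical axes, from 0) of the 5 histone genes called at Day 5 against baseline in ByJcl, by library and group, with lines at the mean of the filled points and an open point for the set-aside Ajcl library. ByJcl Day 5 lies above ByJcl baseline for H3f3b and below it for the other 4 genes, and the 2 Ajcl Day 5 libraries lie apart for H2bc21, H2bc6, H1f4 and H4c14.

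Of the 29 tested cluster genes 22 had a negative log2 fold change in ByJcl, or 75.9% against 49.2% of all tested genes. Their median was -0.39 against 0.01 over all tested genes, and 4 were called, all lower (13.8%, against 4.83% of all genes called lower and 10.6% called in either direction). These shares are a description without a test. H2bc4 was at 56.6, 56.6 and 63.6 CPM at baseline and at 42.9, 38.7 and 57.0 CPM at Day 5, and H1f2 was at 59.3, 68.8 and 58.5 CPM and at 64.5, 74.0 and 92.3 CPM. Both pairs of groups overlapped. In bulk RNA, fewer cells of a type and less RNA per cell cannot be told apart.

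In Ajcl no histone gene was called by edgeR at Day 5 against baseline, where 0.312% of all genes were called. At an unadjusted p of 0.05 there were 3 histone genes, H4c8, H1f2 and H1f0 (8.33%, against 9.8% of all genes), and DESeq2 called 1, H4c8, and 1.77% of all genes. The H4 gene H4c8 was at 2.62, 2.84 and 3.35 CPM at baseline and at 4.81 and 4.85 CPM at Day 5, with a log2 fold change of 0.74 (SE 0.19, adjusted p = 0.186, edgeR). The linker histone gene H1f2 had a log2 fold change of 0.47 (SE 0.15, adjusted p = 0.296, edgeR). H1f0, which encodes the linker histone H1.0 of cells that have stopped dividing, had one of 0.28 (SE 0.09, adjusted p = 0.308, edgeR). The median over the 29 cluster genes was 0.16, against -0.01 over all genes, and 13 of the 29 were negative (44.8%, against 51.3% of all genes).

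The difference between the 2 responses was tested as a substrain by ADR interaction, and no histone gene was called by edgeR or DESeq2. Over all genes edgeR called 0.0% and DESeq2 0.135%. At an unadjusted p of 0.05 there were 3 histone genes (8.33%, against 8.02% of all genes), with log2 differences (ByJcl response minus Ajcl response) of -0.79 for H2bc21 (SE 0.29, adjusted p = 0.62, edgeR), -0.89 for H2bc6 (SE 0.37) and -1.92 for H4c14 (SE 0.72). The values were -1.49 for H1f4 (SE 0.73) and 0.34 for H3f3b (SE 0.17). Of the 29 cluster genes 26 had a negative difference (89.7%, against 49.7% of all genes), with a median of -0.55 against 0.00. This is a description without a test, and the interaction holds the same libraries as the other comparisons. The ByJcl response of the called genes is thus not shown to differ from that of Ajcl. In the interaction the 8 podocyte markers were all negative (median -0.87). The p53 targets were positive in 7 and negative in 1 (median 0.54), and 32 genes of S phase and the cell cycle were positive in 24 and negative in 8 (median 0.40). None of these was called by edgeR or DESeq2, and their part in the histone values was not tested.

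**Figure D4:**
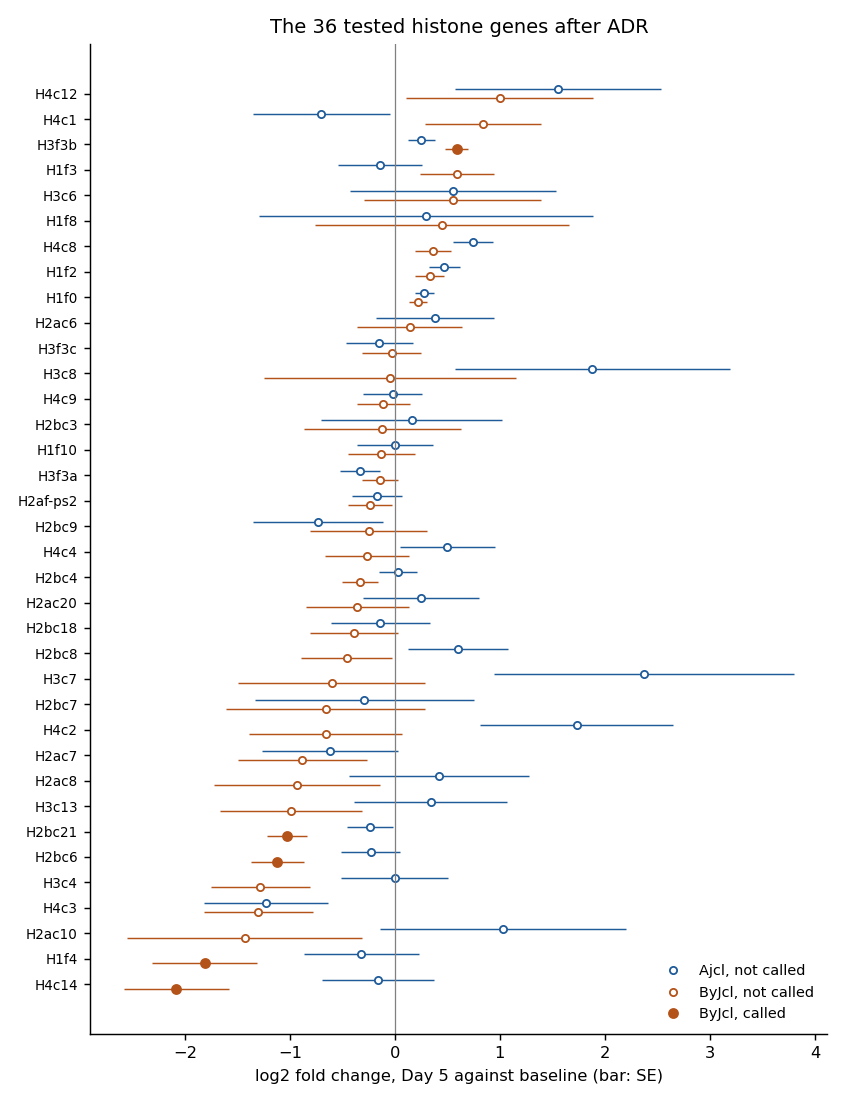
Log2 fold change of Day 5 against baseline (horizontal axis, bars are SE) for the 36 tested histone genes in Ajcl and ByJcl, ordered by the ByJcl value, with filled points for genes called by edgeR. With edgeR the called genes are all in ByJcl, from -2.08 for H4c14 to 0.59 for H3f3b.

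Between substrains, no histone gene was called by edgeR at baseline (0.159% of all genes) or at Day 5 (0.165%). At baseline 4 histone genes had an unadjusted p below 0.05, all higher in ByJcl (11.1%, against 8.34% of all genes), and DESeq2 called 0 of them and 0.594% of all genes. The log2 fold change of H1f2 was 0.34 (SE 0.14, adjusted p = 0.58, edgeR), and the others were H4c8, H4c2 and H3c7. H3c7 had 2 counts in all Ajcl baseline libraries together and 24, 12 and 6 in ByJcl, so its fold rests on very few reads. The libraries of H4c2 held 1, 3 and 2 counts in Ajcl and 11, 14 and 4 in ByJcl. Of the 29 cluster genes 8 were negative (27.6%, against 48.2% of all genes). At baseline the 8 immune markers were all higher in ByJcl (median 0.75), with sums of 69.7 to 118 CPM against 41.0 to 65.2 CPM in Ajcl, and the 9 proximal tubule markers all lower (median -0.75), with sums that overlapped. The 8 podocyte markers were also all higher in ByJcl (median 0.22), with sums of 18600 to 20600 CPM against 14600 to 19900 CPM, which overlapped. The summed level of RNAs without a poly(A) tail was higher in all ByJcl than in all Ajcl baseline libraries, although 4 of the 8 tested had positive and 4 negative log2 fold changes. None of these genes was called by edgeR or DESeq2, and their part in the histone values was not tested.

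At Day 5 there were 4 histone genes with an unadjusted p below 0.05 (11.1%, against 14.0% of all genes), and DESeq2 called 2 of them, H3f3b and H2bc21, and 3.26% of all genes. H3f3b had a log2 fold change of 0.45 in ByJcl against Ajcl (SE 0.13, adjusted p = 0.185, edgeR), H2bc21 one of -0.79 (SE 0.21, adjusted p = 0.165, edgeR) and H2bc6 one of -0.77 (SE 0.27, adjusted p = 0.267, edgeR). The Day 5 libraries of the substrains did not overlap for 4 of the 36 histone genes (11.1%), against 32.3% of all tested genes. All ByJcl libraries were above those of Ajcl for H3f3b, H4c1 and H1f0 and below them for H2bc21. Of the 29 cluster genes 21 were negative (72.4%, against 49.7% of all genes). In the same comparison the log2 fold changes of the 8 podocyte markers were all negative (median -0.66) and those of the 8 p53 targets all positive (median 0.55), with none called by edgeR and 1 of each list called by DESeq2. The immune markers were positive in 7 of 8 (median 1.13), with sums of 73.3 to 131 CPM in ByJcl against 32.8 and 69.7 CPM in Ajcl, with none called by edgeR and 1 by DESeq2. The 9 proximal tubule markers were all negative (median -0.94), with none called by edgeR or DESeq2. The part of these markers in the histone values was not tested.

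Promoters were compared because cluster genes are known to share elements near their start. In the 250 bases before the start, from RefSeq on GRCm38.p6 with 52 of the 58 genes matched, CCAAT on either strand was found in 39 of 47 cluster promoters (83.0%), against 33.8% of 32851 promoters. It was in every H1, H2A, H2B and H3 cluster promoter and in 3 of 11 H4 promoters. TATAAA was in 51.1% against 12.4%. The octamer ATTTGCAT was in 5 of 12 H2B and 5 of 11 H2A promoters, against 1.60% of all promoters. The promoters of H1f4, which fell, and H3f3b, which rose, are shown with the motifs in capitals, at chr13:23622559-23622808 and chr11:116024505-116024754 of GRCm38.p6, both on the minus strand.
H1f4: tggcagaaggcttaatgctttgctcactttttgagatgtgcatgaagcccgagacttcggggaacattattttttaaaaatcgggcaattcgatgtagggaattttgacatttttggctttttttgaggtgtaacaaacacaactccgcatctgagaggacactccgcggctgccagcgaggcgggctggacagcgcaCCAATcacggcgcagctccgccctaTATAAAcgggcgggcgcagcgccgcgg
H3f3b: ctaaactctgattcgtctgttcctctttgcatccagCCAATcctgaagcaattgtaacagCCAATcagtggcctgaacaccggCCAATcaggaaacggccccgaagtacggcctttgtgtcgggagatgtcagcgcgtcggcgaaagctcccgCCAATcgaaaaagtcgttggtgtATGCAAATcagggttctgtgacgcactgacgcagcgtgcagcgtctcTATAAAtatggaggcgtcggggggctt

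Both hold CCAAT and TATAAA, and H3f3b also holds the octamer on the other strand, printed as ATGCAAAT. A match is a run of letters and not a bound site.

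Genes that make or use histone mRNA were set beside the histone genes in ByJcl at Day 5 against baseline, where 10.6% of all genes were called. Of 32 genes of S phase and the cell cycle, 2 rose and 1 fell, which is near that share, with a median log2 fold change of 0.31 against 0.01 over all genes. Rrm1, a subunit of the enzyme that makes deoxynucleotides, rose by 1.04 (SE 0.12, adjusted p = 0.00146, edgeR), Cdt1, which licenses replication origins, rose by 0.84 (SE 0.24, adjusted p = 0.0476, edgeR) and the transcription factor gene E2f1 fell by 1.42 on the log2 scale (SE 0.36, adjusted p = 0.031, edgeR). The proliferation marker Mki67 was at 9.30, 7.07 and 1.44 CPM at Day 5 against 4.98, 5.65 and 4.27 CPM at baseline. Top2a, which encodes a form of topoisomerase II, was at 9.90, 7.34 and 1.85 CPM against 2.60, 3.00 and 2.18 CPM. For both genes the ByJcl Day 5 libraries ranged from below to above baseline.

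Of 22 tested genes of histone mRNA 3′ end formation and decay, 2 were called, also near 10.6%. Cpsf2 rose and Lsm11, a part of the U7 particle that cuts histone mRNA, fell by 0.63 on the log2 scale (SE 0.18, adjusted p = 0.0458, edgeR). Slbp was at 34.9, 29.7 and 30.8 CPM at baseline and at 36.0, 35.3 and 29.0 CPM at Day 5, and the groups overlapped. Of 21 histone chaperone genes 1 was called by edgeR, a share below 10.6%, namely Nap1l1 with a log2 fold change of -0.70 (SE 0.16, adjusted p = 0.023).

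Of 10 tested histone genes with other names, 1 rose and 2 fell in ByJcl, against 10.6% of all genes called. H2aj, an H2A variant gene, was at 44.5, 44.4 and 50.4 CPM at baseline and at 68.8, 81.3 and 65.2 CPM at Day 5, with a log2 fold change of 0.66 (SE 0.14, adjusted p = 0.0132, edgeR). H2aw fell by 0.89 on the log2 scale (SE 0.20, adjusted p = 0.0207, edgeR) and H2bu2 fell by 1.24 (SE 0.27, adjusted p = 0.0159, edgeR). None of the 10 was called by edgeR in Ajcl, where 0.312% of all genes were called.

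RNAs that lack a poly(A) tail were also summed. Over 26 genes, of which 8 were tested, they were at 25.7, 20.7 and 19.8 CPM in ByJcl at baseline and at 28.6, 19.9 and 7.13 CPM at Day 5, and at 7.86, 12.0 and 11.6 CPM in Ajcl at baseline and at 15.4 and 16.7 CPM at Day 5. In Ajcl the groups did not overlap, and at baseline all ByJcl libraries lay above all Ajcl libraries. Most of the sum was Rn7sk, a small nuclear RNA made without a poly(A) tail, at 16.3, 15.4 and 13.5 CPM in ByJcl and 4.16, 6.11 and 6.69 CPM in Ajcl at baseline. Without Rn7sk the baseline sums were 9.39, 5.32 and 6.30 CPM in ByJcl and 3.70, 5.87 and 4.94 CPM in Ajcl, and they overlapped. Of the 8 tested genes 4 had a positive log2 fold change between substrains at baseline and 4 a negative one. Rn7sk had a log2 fold change of 1.43 in ByJcl against Ajcl at baseline (SE 0.46, adjusted p = 0.536, edgeR). None of the 8 was called by edgeR in the 4 group comparisons. The part of this in the histone levels was not tested.

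The libraries held between 42198416 and 54687045 counts. All 8 podocyte markers were detected, with sums from 7030 to 20600 CPM. Other measures moved with ADR in ByJcl beside the histone genes. The 8 podocyte markers all fell (median log2 fold change -1.20), and the 8 p53 targets all rose (median 1.97), with Cdkn1a at 22.5, 20.3 and 23.2 CPM at baseline and at 599, 946 and 591 CPM at Day 5. The 9 proximal tubule markers summed to between 615 and 3460 CPM at baseline and between 589 and 2200 CPM at Day 5, with none called. Among 8 endothelial markers 1 rose and 2 fell, no mesangial marker of 5 tested was called, and of 8 immune markers Cd68 rose. Of 6 erythroid markers 4 had no counts in any library, and Alas2 fell by 3.50 on the log2 scale. Their part in the histone values was not tested.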

How the data were processed

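Poly(A)-selected, strand-specific paired-end RNA-seq of isolated glomeruli was measured in 12 libraries. The authors used FastQC, Trimmomatic, STAR with GRCm39 and featureCounts, and deposited raw counts per gene symbol. The annotation, the strand setting and the counting of mates are not given in the sources used here. Baseline and Day 5 counts come in separate tables, so table and ADR cannot be told apart. Of counts between 1 and 49, 65.4% were even numbers in the histone genes and 79.7% in all genes, so a low count cannot be read as a number of separate fragments.

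Groups were taken from the labels, which put all libraries in 1 batch. Counts were scaled by TMM and tested with edgeR 4.0.16 in R 4.3.3 (filterByExpr by group, quasi-likelihood test, Benjamini-Hochberg adjustment over 17002 genes, called below 0.05) in 5 contrasts over 11 libraries, leaving out replicate 1 of Ajcl at Day 5. The method was tested on simulated data. DESeq2 1.42.0, other scalings and filters, all 12 libraries, a replicate block and leaving out each library were the alternatives. The labels list replicates as separate samples without naming animals, so p-values measure only the spread between these samples, which may be technical in part. No library was a copy of another of its group (chi-square per degree of freedom from 44.24 to 275.1 over the 12 pairs within groups).

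The genes and gene lists were chosen with earlier results of these data known. The rule for naming took histone genes called in any contrast and the 3 with the smallest p in each contrast. It also took the 2 with the highest level in each cluster class and tested genes outside the clusters. Of the other lists it took the 3 with the smallest p, with Slbp, Mki67, Top2a, Rn7sk and Cdkn1a. H2ac20, H3c6, H1f10 and H1f8 meet this rule but are not described above, nor is every such gene of the other lists. Sequences came from GRCm39 with GENCODE vM39 and, for promoters, RefSeq. Tables and figures used Python with pandas and matplotlib.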

Additional observations from a re-analysis of the deposited data

Results flagged for a closer look

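The library of Ajcl at Day 5 that the comparisons leave out, replicate 1, stood above every other library and at least 1.5 times above the highest baseline library for 3 of the 36 tested histone genes (8.33%), against 4.8% of all tested genes. H2bc4 was at 126 CPM in it, against at most 64.0 CPM at baseline and 74.0 CPM in the other libraries. H4c9 was at 12.5 CPM, against at most 6.73 CPM in any other library. H4c8 was at 9.95 CPM, against at most 4.10 CPM at baseline and 5.04 CPM elsewhere. In all, 10 of the 36 tested histone genes (27.8%) had their highest level in this library, against 22.7% of all tested genes. Its proximal tubule markers summed to 8980 CPM, against 589 to 6010 CPM in the other libraries, and the part of this in the histone values was not tested.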

How the results depend on the processing

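For 24 log2 fold changes of named histone genes, which include 5 whose main value is not printed above, 384 of 412 values under alternatives kept their direction and side of the threshold, and no called value changed sign. The number of histone genes called at Day 5 in ByJcl was 5, and 3 with all 12 libraries (H3f3b, H2bc21 and H2bc6). It ranged from 2 to 5 when a library was left out, and H3f3b and H2bc21 stayed called throughout. DESeq2 called 2 at Day 5 between substrains and 1 in Ajcl, where edgeR called 0, and leaving out a library gave 0 to 1 at Day 5 between substrains (H2bc21 without replicate 3 of Ajcl at Day 5). That fit holds 1 Ajcl Day 5 library, which is assumed to vary like those of the other groups.

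In Ajcl, leaving out a library turned the sign of 4 uncalled changes at Day 5, which ranged over these fits from -0.72 to 0.12 for H2bc6, from -1.15 to 0.18 for H1f4, from -0.75 to 0.11 for H2bc21 and from -1.06 to 0.38 for H4c14. Over all 105 named values, 93 of 1805 alternatives changed sign.

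Summed levels moved by more than the SD in a few cases. In ByJcl at baseline the cluster genes were at 184 CPM with total counts as library sizes. In Ajcl at Day 5 the H3.3 genes were at 778 CPM with RLE size factors, 802 with total counts and 870 with all 12 libraries, and the H1 genes outside the clusters at 197, 203 and 211 CPM.

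Same-numbered libraries did not deviate together (correlations from -0.239 to 0.374), so the numbers do not pair the libraries. With the replicate number as a block, 4 histone genes were called in ByJcl at Day 5, and H1f4 was lost (log2 fold change -1.76, adjusted p = 0.0738, edgeR). No other count of called histone genes changed.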
